A study of Mus musculus with 15 samples.

Results

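Endothelial cells read the friction of flowing blood, and a small set of their genes is known to follow it. The 10 genes described here are Klk10, Klf2, Klf4, Nos3, Thbd, Edn1, Bmp4, Cav1, Cyp1b1 and Gja4. They were taken by name from a table of carotid artery arrays in which 22180 genes could be measured. All 10 were found, each by a single probe set that carries no other gene symbol. The list was drawn up with the ligation changes of these same arrays in view, so the ligation values below are a description of the chosen genes, given without p-values. The comparisons of genotype were tested.

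The arrays came from carotid arteries of female C57Bl/6J mice aged 21 to 22 weeks, excised 5 days after surgery in which the left common carotid artery was tied off. There were 4 groups: Has3-deficient ligated arteries (n = 3, numbered 3, 5 and 6 in the labels), Has3-deficient non-ligated arteries (n = 4), wildtype ligated arteries (n = 4) and wildtype non-ligated arteries (n = 4). Has3 is an enzyme that spins out the polysaccharide hyaluronan; the labels describe the mice as deficient in it and give no further detail of the allele. Nothing in them says whether the samples of a group, or the ligated and non-ligated arteries, were taken from different mice, and the p-values therefore cover only the scatter among the samples at hand, which may in part be technical.

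Ligation of the common carotid stops the forward stream through it, and the vessel wall then thickens inwards over the following weeks. Under steady flow, endothelial cells switch on the transcription factors Klf2 and Klf4 through a mitogen-activated kinase cascade ending in Mapk7 and the MEF2 factors. Klf2 and Klf4 in turn raise nitric oxide synthase (Nos3) and thrombomodulin (Thbd), which keep the vessel relaxed and free of clots, and hold down the constrictor endothelin (Edn1). Klk10, a secreted member of the kallikrein family of proteases, is known from mouse carotid endothelium as a gene that is high under stable flow and lost under disturbed flow.

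RefSeq promoter sequences (build GRCm38.p6, 250 bases before to 50 after the annotated start) were given for 8 of the 10 genes, with 9 start sites. They are shown for Klk10 and Klf2 because both hold a match to the MEF2 consensus, for Edn1 because it is known to be held down by the Klf factors, and for the first start of Cav1 because it holds none of the motifs searched. Capitals mark CACCC, the core that Klf factors bind, on either strand, the MEF2 match in Klk10 and Klf2, and a motif of the GATA factors in Edn1.
Klk10 chr7:43780804-43781103 (+ strand): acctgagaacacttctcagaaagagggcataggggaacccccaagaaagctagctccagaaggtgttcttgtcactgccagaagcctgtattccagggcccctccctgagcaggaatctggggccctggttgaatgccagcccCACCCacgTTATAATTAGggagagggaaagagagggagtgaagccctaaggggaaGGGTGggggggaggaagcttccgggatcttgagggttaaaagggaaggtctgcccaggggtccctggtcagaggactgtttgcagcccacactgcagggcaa
Klf2 chr8:72318812-72319111 (+ strand): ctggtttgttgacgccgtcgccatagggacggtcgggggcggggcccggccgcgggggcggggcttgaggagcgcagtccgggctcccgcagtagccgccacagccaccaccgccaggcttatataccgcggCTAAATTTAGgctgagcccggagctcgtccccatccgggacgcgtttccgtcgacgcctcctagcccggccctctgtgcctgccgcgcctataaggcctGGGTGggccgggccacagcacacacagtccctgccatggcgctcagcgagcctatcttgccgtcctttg
Edn1 chr13:42301226-42301525 (+ strand): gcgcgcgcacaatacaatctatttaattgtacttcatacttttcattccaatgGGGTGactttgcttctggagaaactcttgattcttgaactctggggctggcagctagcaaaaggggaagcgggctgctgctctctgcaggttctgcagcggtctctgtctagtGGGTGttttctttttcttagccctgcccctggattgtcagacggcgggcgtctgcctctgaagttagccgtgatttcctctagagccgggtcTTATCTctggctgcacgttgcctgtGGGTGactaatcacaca
Cav1 chr6:17306085-17306384 (+ strand): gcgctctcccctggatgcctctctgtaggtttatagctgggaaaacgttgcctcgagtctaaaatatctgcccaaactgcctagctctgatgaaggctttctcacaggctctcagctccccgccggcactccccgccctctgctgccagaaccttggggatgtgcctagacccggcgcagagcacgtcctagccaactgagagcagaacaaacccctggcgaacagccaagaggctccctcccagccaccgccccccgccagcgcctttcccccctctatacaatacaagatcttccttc

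The motifs were searched on both strands in all 32851 promoters of this length, and none of the capitalised matches overlap. CACCC was found 2 times in Klk10, once in Klf2, 3 times in Edn1, 3 times in Cyp1b1 and once at the second start of Cav1, and not in Klf4, Bmp4, Gja4 or the first start of Cav1; 57.5% of all promoters hold it. The MEF2 consensus is rarer, at 3.19% of all promoters, and matched in Klk10 and Klf2 among the 8 genes. TTATCT, the motif of the GATA factors, was found in Edn1 (11.2% of all promoters). GCGTG, the core bound by the aryl hydrocarbon receptor, was found in Cyp1b1 (32.4% of all promoters), and TGANTCA, the AP-1 motif, in none of the 8 (7.81% of all promoters). These are matches of letters in a short window and say nothing on whether a factor binds there.

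The values below are log2 values relative to the median of the same gene over the 15 arrays, so 0 is the middle array, a difference of 1 is a doubling (base 2 being inferred from the stored numbers), and levels cannot be compared between genes. A change is the mean of the ligated arrays minus the mean of the non-ligated arrays of the same genotype, given with its standard error (SE) from a fit of all genes with limma. A gene passed when its Benjamini-Hochberg adjusted p over the 22180 genes was under 0.05.

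The array medians ranged from -0.0014 to 0.017. Every probe set had been centred, so these medians say nothing on how alike the arrays were in spread. For Has3 itself the difference between Has3-deficient and wildtype arteries was -0.20 ± 0.16 (SE) in ligated and 0.09 ± 0.14 in non-ligated arteries, and neither passed. Whether its probe set lies in the part removed was not examined here, so it is no check on the genotypes, which follow the labels. Some non-ligated arrays stood apart in markers of tissue around the artery. The mean of 7 neuron markers reached 4.69 and 1.97 in Has3-deficient non-ligated arrays 3 and 4 and 2.75 in wildtype non-ligated array 2. The mean of 7 fat markers reached 1.81 in Has3-deficient non-ligated array 4 and 1.59 in wildtype non-ligated array 1.

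After ligation 4 of the 10 genes passed as lower in Has3-deficient arteries and 5 in wildtype arteries, and none passed as higher. Klk10, Nos3, Thbd and Cav1 passed in both genotypes and Bmp4 in wildtype arteries. Of all genes 8.08% passed as lower and 10.2% as higher in Has3-deficient arteries, 14.6% as lower and 13.2% as higher in wildtype arteries, and the share that passed in either direction was 18.3% in Has3-deficient arteries and 27.8% in wildtype arteries. The median change of the 10 genes was -0.18 in Has3-deficient and -0.49 in wildtype arteries, against medians of -0.03 and 0.01 over all genes. The arrays of ligated and non-ligated arteries did not overlap for 4 lower and 2 higher genes in Has3-deficient arteries (13.4% of all genes lower, 13% higher) and for 4 lower genes and 1 higher gene in wildtype arteries (16% lower, 14% higher). Since the genes were chosen with these changes known, passed is used here and below as a description of them and nothing is read from these shares.

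**Figure D1:**
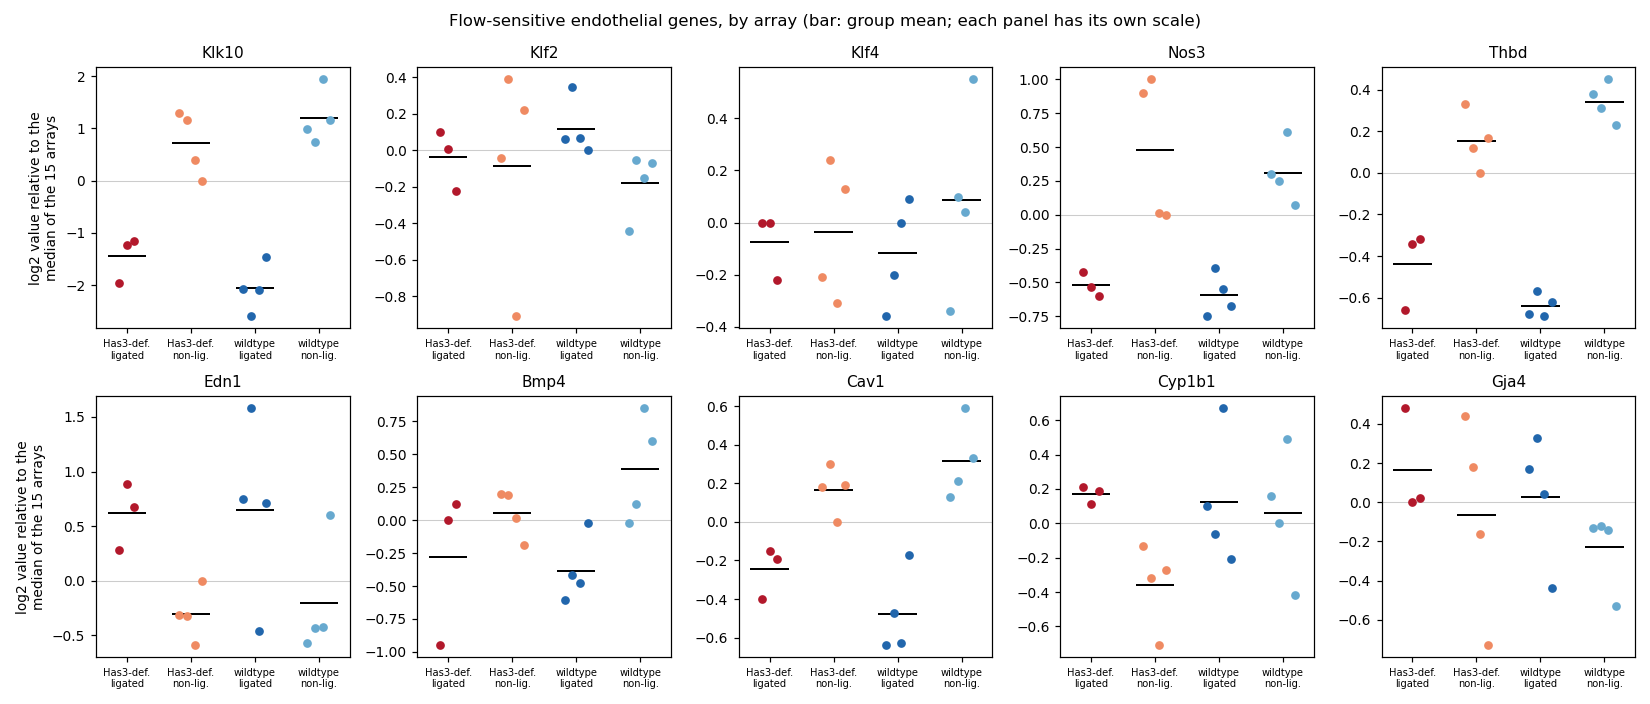
Log2 value of each of the 10 genes in each of the 15 arrays (points), relative to the gene's median over the arrays, by group on the horizontal axis, with the group mean as a bar and a separate vertical scale for each gene. For Klk10, Nos3, Thbd and Cav1 every ligated array lies below every non-ligated array of its genotype, while for Klf4 and Gja4 the groups overlap.

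Klf2 and Klf4 stand at the head of the flow response. Klf2 was at 0.10, 0.01 and -0.22 in Has3-deficient ligated arteries, against -0.04, 0.39, -0.91 and 0.22 in Has3-deficient non-ligated arteries. It was at 0.06, 0.35, 0.07 and 0.00 in wildtype ligated arteries, against -0.44, -0.05, -0.15 and -0.07 in wildtype non-ligated arteries. The Has3-deficient groups overlapped, and in wildtype arteries each ligated array was above each non-ligated array by a small margin. The change of Klf2 was 0.05 ± 0.23 in Has3-deficient arteries and 0.30 ± 0.21 in wildtype arteries, and neither passed. Without Has3-deficient non-ligated array 3, the lowest of all for Klf2, its change in Has3-deficient arteries was -0.23.

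Klf4 was at 0.00, 0.00 and -0.22 in Has3-deficient ligated arteries, against -0.21, 0.24, -0.31 and 0.13 in Has3-deficient non-ligated arteries. It was at -0.36, -0.20, 0.00 and 0.09 in wildtype ligated arteries, against -0.34, 0.10, 0.04 and 0.55 in wildtype non-ligated arteries. The groups overlapped in both genotypes. The change of Klf4 was -0.04 ± 0.19 in Has3-deficient arteries and -0.21 ± 0.17 in wildtype arteries, and neither passed.

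Klk10, whose promoter opens the sequences above, had the largest difference of the 10. It was at -1.96, -1.23 and -1.16 in Has3-deficient ligated arteries, against 1.29, 1.17, 0.39 and 0.00 in Has3-deficient non-ligated arteries. It was at -2.08, -2.60, -2.09 and -1.46 in wildtype ligated arteries, against 0.99, 0.73, 1.94 and 1.16 in wildtype non-ligated arteries. The lowest non-ligated array of either genotype was above the highest ligated array. Klk10 fell by 2.16 ± 0.36 log2 units in Has3-deficient arteries (4.48-fold) and fell by 3.26 ± 0.33 in wildtype arteries (9.60-fold). With quantile normalization of the arrays its change was -3.41 in Has3-deficient and -4.13 in wildtype arteries. Here and below this was applied to the centred values, so it evened out the spread of deviations between arrays, not their levels. It can thus stretch or shrink a change. Counted from the most negative change among the 22180 genes in the main fit, Klk10 stood at place 4 in Has3-deficient arteries and place 1 in wildtype arteries. In RNA of a whole artery, fewer cells of a type and less RNA per cell cannot be told apart.

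Nos3, the endothelial nitric oxide synthase, was at -0.42, -0.53 and -0.60 in Has3-deficient ligated arteries, against 0.90, 1.0, 0.01 and 0.00 in Has3-deficient non-ligated arteries. It was at -0.75, -0.39, -0.55 and -0.67 in wildtype ligated arteries, against 0.30, 0.25, 0.61 and 0.07 in wildtype non-ligated arteries. The groups did not overlap, and the Has3-deficient non-ligated arrays fell into a higher pair and a lower pair. Nos3 fell by 0.99 ± 0.22 in Has3-deficient arteries (1.99-fold) and fell by 0.90 ± 0.21 in wildtype arteries (1.87-fold). With quantile normalization the Has3-deficient change was -1.64 and the wildtype change of -0.98 no longer passed, and with only the Has3-deficient groups in the fit the change of -0.99 there did not pass.

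Thbd encodes thrombomodulin, the receptor that turns thrombin towards activation of the anticoagulant protein C. It was at -0.66, -0.34 and -0.32 in Has3-deficient ligated arteries, against 0.33, 0.12, 0.00 and 0.17 in Has3-deficient non-ligated arteries. It was at -0.68, -0.57, -0.69 and -0.62 in wildtype ligated arteries, against 0.38, 0.31, 0.45 and 0.23 in wildtype non-ligated arteries. The ligated and non-ligated arrays did not overlap in either genotype. Thbd fell by 0.60 ± 0.09 in Has3-deficient arteries (1.51-fold) and fell by 0.98 ± 0.09 in wildtype arteries (1.98-fold).

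The Has3-deficient non-ligated arrays 3 and 4 were the lowest of their group for Klk10 and Nos3. In them the mean of 17 endothelial markers was -0.20 and -0.08, against 0.25 and 0.13 in arrays 1 and 2, and the neuron markers, high in arrays 3 and 4, were at 0.88 and -0.15 in arrays 1 and 2. The part of this in the spread of Klk10 and Nos3 was not tested. Without array 3 the ligation change in Has3-deficient arteries was -2.27 for Klk10, -1.15 for Nos3 and -0.65 for Thbd. It was -0.47 for Cav1 and 0.41 for Cyp1b1. Without array 4 the change of Klk10 was -2.40. Wildtype non-ligated array 2, with a neuron mean of 2.75, was the lowest of its group for Klk10. Without it the wildtype change of Klk10 was -3.42.

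Edn1 and Bmp4 are signals that endothelial cells send out, a vessel constrictor and a growth factor that is known to be induced by oscillating flow. Edn1 was at 0.28, 0.89 and 0.68 in Has3-deficient ligated arteries, against -0.31, -0.32, -0.59 and 0.00 in Has3-deficient non-ligated arteries. It was at 0.75, 1.58, -0.46 and 0.71 in wildtype ligated arteries, against -0.57, -0.43, -0.42 and 0.60 in wildtype non-ligated arteries. The Has3-deficient groups did not overlap, while in wildtype arteries ligated array 3 lay among the lower and non-ligated array 4 among the higher values. The change of Edn1 was 0.92 ± 0.38 in Has3-deficient arteries (1.90-fold) and 0.85 ± 0.35 in wildtype arteries (1.80-fold). Neither passed over all genes. In wildtype arteries the change passed as higher without ligated array 3 (1.21) or without non-ligated array 4 (1.11), while without ligated array 2 it was 0.54 and did not pass. It passed in Has3-deficient arteries with only those groups in the fit (0.92) or with wildtype ligated array 3 left out of the shared spread (0.92).

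Bmp4 was at -0.95, 0.00 and 0.12 in Has3-deficient ligated arteries, against 0.20, 0.19, 0.02 and -0.19 in Has3-deficient non-ligated arteries. It was at -0.61, -0.42, -0.48 and -0.02 in wildtype ligated arteries, against -0.02, 0.12, 0.85 and 0.60 in wildtype non-ligated arteries. The groups overlapped in Has3-deficient arteries and just met in wildtype arteries. The change of Bmp4 was -0.33 ± 0.25 in Has3-deficient arteries, which did not pass, and -0.77 ± 0.24 in wildtype arteries (1.70-fold lower), which passed. Without Has3-deficient ligated array 3, the lowest of all, the Has3-deficient change was 0.0094, and without ligated array 6 it was -0.53. The wildtype call was lost without any of ligated arrays 1 (-0.69), 2 (-0.76) and 3 (-0.74) or non-ligated arrays 3 (-0.62) and 4 (-0.70), and also relative to the endothelial markers (-0.67).

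Cav1 forms the coat of caveolae, the small membrane pits in which nitric oxide synthase is held; smooth muscle and fat cells make it too. It was at -0.40, -0.15 and -0.19 in Has3-deficient ligated arteries, against 0.18, 0.30, 0.00 and 0.19 in Has3-deficient non-ligated arteries. It was at -0.64, -0.47, -0.63 and -0.17 in wildtype ligated arteries, against 0.13, 0.21, 0.59 and 0.33 in wildtype non-ligated arteries. No ligated array reached a non-ligated array of its genotype. Cav1 fell by 0.41 ± 0.13 in Has3-deficient arteries (1.33-fold) and fell by 0.79 ± 0.12 in wildtype arteries (1.73-fold). The Has3-deficient call was lost without any of non-ligated arrays 1 (-0.41), 2 (-0.37) and 4 (-0.41) or ligated arrays 3 (-0.34), 5 (-0.47) and 6 (-0.44), with quantile normalization (-0.42) and relative to the endothelial markers (-0.37).

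Cyp1b1, a cytochrome P450 under the aryl hydrocarbon receptor, is known to be induced by steady shear. It was at 0.21, 0.11 and 0.19 in Has3-deficient ligated arteries, against -0.13, -0.32, -0.71 and -0.27 in Has3-deficient non-ligated arteries. It was at 0.10, -0.06, 0.67 and -0.21 in wildtype ligated arteries, against 0.16, 0.00, 0.49 and -0.42 in wildtype non-ligated arteries. The groups did not overlap in Has3-deficient arteries and overlapped throughout in wildtype arteries. The change of Cyp1b1 was 0.53 ± 0.22 in Has3-deficient arteries (1.44-fold) and 0.06 ± 0.20 in wildtype arteries, and neither passed. The Has3-deficient change passed as higher with only those groups in the fit (0.53) and relative to the endothelial markers (0.58).

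Gja4, a connexin of the gap junctions between arterial endothelial cells, was at 0.48, 0.00 and 0.02 in Has3-deficient ligated arteries, against 0.44, 0.18, -0.16 and -0.73 in Has3-deficient non-ligated arteries. It was at 0.17, 0.33, 0.04 and -0.44 in wildtype ligated arteries, against -0.13, -0.12, -0.14 and -0.53 in wildtype non-ligated arteries. The groups overlapped in both genotypes. The change of Gja4 was 0.24 ± 0.24 in Has3-deficient arteries and 0.25 ± 0.23 in wildtype arteries, and neither passed. The standard deviation within groups was 0.12 log2 units for Thbd, 0.18 for Cav1, 0.27 for Klf4, 0.31 for Cyp1b1, 0.32 for Nos3, 0.33 for Klf2, 0.35 for Gja4, 0.37 for Bmp4, 0.52 for Klk10 and 0.55 for Edn1, against 0.13 for the median gene.

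**Figure D2:**
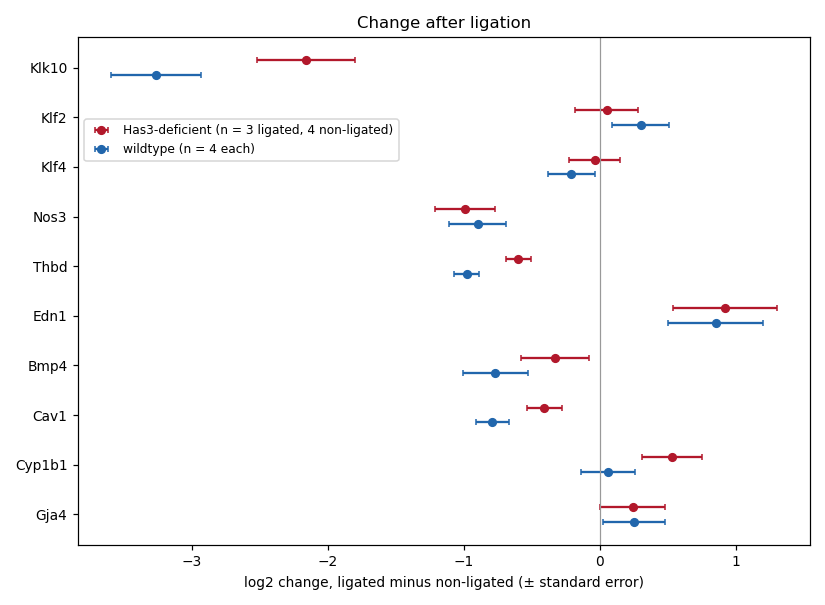
Change after ligation of each of the 10 genes on the log2 scale (points; bars are ± 1 standard error of the fit), in Has3-deficient arteries (red, upper point) and wildtype arteries (blue, lower point). Klk10 lies farthest from 0, at -2.16 and -3.26, and Klf2 and Klf4 lie within 0.30 of 0 in both genotypes.

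The effect of Has3 deficiency on these genes was tested within ligated and within non-ligated arteries. None of the 10 passed in either comparison, and for none did the arrays of the genotypes separate. In ligated arteries no gene of the 22180 passed (0%) in limma; at an unadjusted p under 0.05 there were 910 genes (4.1%), Thbd among them. In non-ligated arteries 19 genes passed (0.0857%) and 2979 genes (13.4%) had an unadjusted p under 0.05, Thbd again the one gene of the 10. Arrays of the genotypes did not overlap for 6.9% of all genes in ligated and 6.22% in non-ligated arteries.

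In ligated arteries Klk10 averaged -1.45 ± 0.44 in Has3-deficient mice (SD, n = 3) and -2.06 ± 0.47 in wildtype mice (SD, n = 4). The difference of 0.61 ± 0.36 (SE; 95% interval -0.17 to 1.38) did not pass (adjusted p = 0.9999, limma), and it turned to -0.20 with quantile normalization. In non-ligated arteries Klk10 averaged 0.71 ± 0.62 in Has3-deficient mice and 1.20 ± 0.52 in wildtype mice (SD, n = 4 each). The difference of -0.49 ± 0.33 (-1.21 to 0.23) did not pass either (adjusted p = 0.559, limma); it was -0.92 with quantile normalization, -0.24 without wildtype non-ligated array 3 and -0.25 without Has3-deficient non-ligated array 4, and passed in none of these. The intervals are wide because few arrays measured a gene with a within-group standard deviation of 0.52. Klk10 was singled out for its ligation change in these same arrays, so its genotype tests are not free of that choice.

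Thbd had the narrowest intervals. In ligated arteries it averaged -0.44 ± 0.19 in Has3-deficient mice (SD, n = 3) and -0.64 ± 0.06 in wildtype mice (SD, n = 4). The difference was 0.20 ± 0.09 (SE, 95% interval 0.0039 to 0.40, adjusted p = 0.9999 in limma). It was 0.07 with quantile normalization and 0.31 without Has3-deficient ligated array 3. In non-ligated arteries Thbd averaged 0.16 ± 0.14 in Has3-deficient mice and 0.34 ± 0.09 in wildtype mice (SD, n = 4 each). There the difference was -0.19 ± 0.09 (SE, 95% interval -0.37 to -0.0033, adjusted p = 0.362 in limma). These intervals are not adjusted for the number of genes, and neither difference passed. The group ranges overlapped in both artery states.

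The other genes differed less between the genotypes, or with wider errors. In ligated arteries Cav1 differed by 0.23 ± 0.13 (0.14 with quantile normalization), and the remaining 7 genes by -0.16 (Klf2) to 0.14 (Gja4), with an adjusted p = 0.9999 in limma throughout. In non-ligated arteries Cyp1b1 differed by -0.42 ± 0.20 (adjusted p = 0.387) and Bmp4 by -0.34 ± 0.24 (adjusted p = 0.571). Nos3 differed by 0.17 ± 0.21 in non-ligated arteries (95% interval -0.28 to 0.61) and by 0.08 ± 0.22 in ligated arteries (-0.40 to 0.56), and the difference in ligated arteries turned to -0.17 with quantile normalization. In non-ligated arteries quantile normalization gave 0.49 for Nos3 and -0.72 for Bmp4, which did not pass.

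Whether ligation acted differently in the genotypes was tested as the change in Has3-deficient arteries minus the change in wildtype arteries. None of the 9 genes other than Klk10, and no gene of the 22180 (0%), passed; at an unadjusted p under 0.05 there were 1802 genes (8.12%), Thbd and Cav1 among them. Klk10, which was singled out for its ligation change and is therefore described without a test, differed by 1.10 ± 0.49 (0.72 with quantile normalization), its change being smaller in size in Has3-deficient arteries. The other 9 genes were also listed with their ligation changes in view, so their tests are not free of that choice. Thbd differed by 0.39 ± 0.13 (0.12 to 0.66; adjusted p = 0.503, limma), Cav1 by 0.38 ± 0.17 (adjusted p = 0.614), Cyp1b1 by 0.46 ± 0.29 (adjusted p = 0.717) and Bmp4 by 0.44 ± 0.35 (adjusted p = 0.769). For Nos3 the difference was -0.09 ± 0.30 (-0.74 to 0.56; adjusted p = 0.952, limma). Quantile normalization gave -0.66 for Nos3 and 0.76 for Bmp4, and neither passed. A call in one genotype and not in the other, as for Bmp4, is thus not shown to be a difference between them.

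The arrays were next described for lists of genes that surround the 10 in the flow response, with the ligation changes tested over all genes. The 12 lists held 138 measured genes, of which 29 rose and 20 fell in Has3-deficient arteries and 33 rose and 32 fell in wildtype arteries. Over all genes 10.2% rose and 8.08% fell in Has3-deficient arteries and 13.2% rose and 14.6% fell in wildtype arteries. These shares stand beside the counts of each list and of the marker lists below. The lists were chosen with earlier results of these data known, so the counts are descriptions and nothing is read from the shares. None of the 138 passed in limma for genotype in ligated arteries, genotype in non-ligated arteries or the difference of the ligation changes. At an unadjusted p under 0.05 there were 7 for genotype in ligated arteries (4.1% of all genes), 17 in non-ligated arteries (13.4%) and 12 for the difference of the ligation changes (8.12%).

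Of 19 genes known to be induced by disturbed flow 12 rose and 1 fell in each genotype, beside the 10.2% and 13.2% of all genes that rose in Has3-deficient and wildtype arteries. Their median change was 0.81 in Has3-deficient and 0.85 in wildtype arteries, against -0.03 and 0.01 over all genes. Thbs1, a matrix glycoprotein, rose by 2.85 ± 0.23 in Has3-deficient and 3.56 ± 0.22 in wildtype arteries, the gelatinase Mmp9 by 2.82 ± 0.27 and 2.54 ± 0.25, the monocyte chemokine Ccl2 by 2.41 ± 0.19 and 2.44 ± 0.17, and the lysosomal protease Ctsl by 1.48 ± 0.11 and 1.48 ± 0.10. Macrophages make Mmp9, Ccl2 and Ctsl as well, and 9 of 10 macrophage markers rose in both genotypes; their part in this list was not tested.

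Of 13 genes known to be induced by shear, 1 rose and 4 fell in Has3-deficient arteries (median change -0.06), and 3 rose and 5 fell in wildtype arteries (-0.13). Hmox1, the haem-degrading enzyme, rose by 3.30 ± 0.20 in Has3-deficient and 3.55 ± 0.18 in wildtype arteries. Palmd, a membrane-associated protein, fell by 1.07 ± 0.24 in Has3-deficient and 1.23 ± 0.22 in wildtype arteries, and the ligand Dhh fell by 0.94 ± 0.17 in Has3-deficient and fell by 1.17 ± 0.16 in wildtype arteries. The angiopoietin receptor Tek fell by 0.86 ± 0.18 in Has3-deficient and fell by 1.45 ± 0.17 in wildtype arteries. The list thus holds changes of opposite sign, with Hmox1, which macrophages also make, far above the rest.

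**Figure D3:**
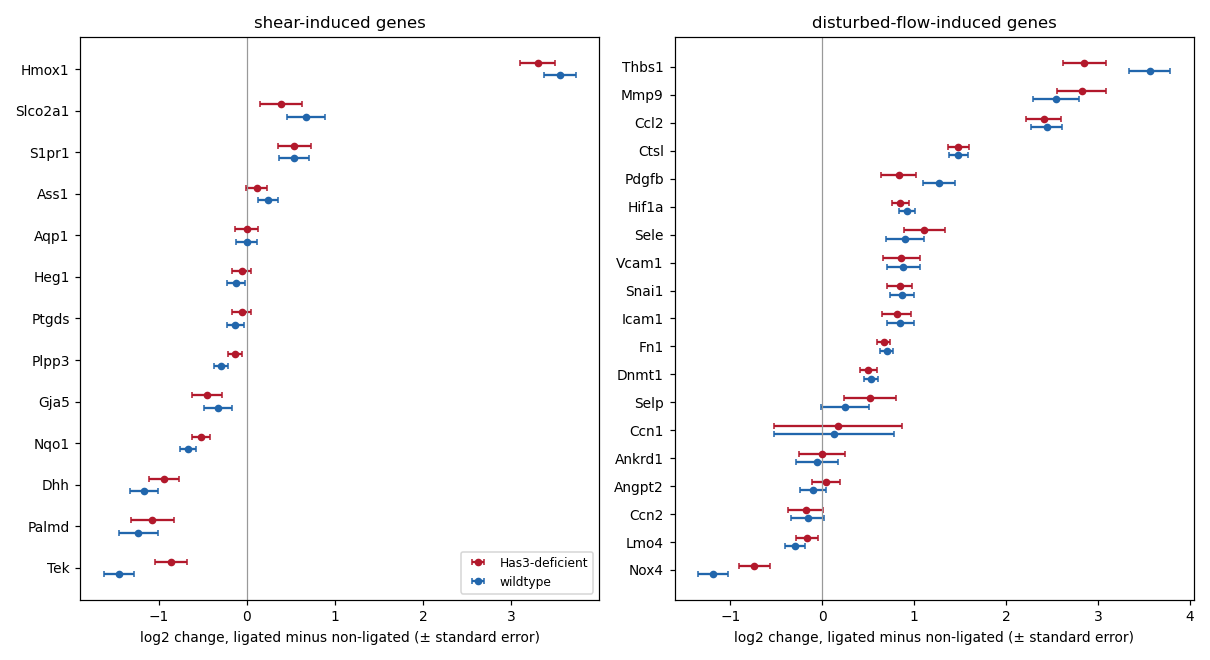
Change after ligation on the log2 scale (points; bars are ± 1 standard error of the fit) for 13 shear-induced genes (left) and 19 disturbed-flow-induced genes (right), in Has3-deficient arteries (red, upper point) and wildtype arteries (blue, lower point). In the right panel 12 genes rose in both genotypes and Nox4 fell, while in the left panel Hmox1 stands alone at 3.30 and 3.55.

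The cascade above Klf2 changed in parts. Of 16 genes of flow sensing and Klf2 induction 3 rose and 2 fell in Has3-deficient arteries, and 4 rose and 5 fell in wildtype arteries. The ATP-gated channel P2rx4 rose by 1.11 ± 0.08 in Has3-deficient and 1.16 ± 0.08 in wildtype arteries, the stretch-gated channel Piezo1 by 0.91 ± 0.12 and 1.14 ± 0.11, and the flow sensor Plxnd1 by 0.88 ± 0.08 and 1.10 ± 0.07. Pkd1, a polycystin of the primary cilium, fell by 0.75 ± 0.24 in Has3-deficient and 0.69 ± 0.22 in wildtype arteries. Of the kinase cascade, Mapk7 rose by 0.44 ± 0.10 and Mef2c fell by 0.61 ± 0.11 in wildtype arteries. Their changes in Has3-deficient arteries, 0.18 ± 0.11 and -0.30 ± 0.12, did not pass. Mef2a and Mef2d passed in neither genotype. The part of macrophages, whose markers rose, in the changes of this list was not tested. Of the 15 other Klf family genes none rose and 3 fell in Has3-deficient arteries, and 2 rose and 5 fell in wildtype arteries. Klf15 fell by 1.08 ± 0.25 in Has3-deficient and 1.26 ± 0.23 in wildtype arteries, Klf9 fell by 0.73 ± 0.20 in Has3-deficient and 0.87 ± 0.19 in wildtype arteries, and Klf12 fell by 0.56 ± 0.17 and 0.87 ± 0.16.

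Among the relatives of Klk10 the changes were small. Of 12 other kallikrein-related peptidases 2 fell in Has3-deficient arteries, and 1 rose and 2 fell in wildtype arteries. Klk11 fell by 0.53 ± 0.11 in Has3-deficient and 0.50 ± 0.10 in wildtype arteries, and Klk8 fell by 0.46 ± 0.11 and 0.42 ± 0.10. Klk9 rose by 0.57 ± 0.12 in wildtype arteries and had a change of 0.25 ± 0.13 in Has3-deficient arteries.

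Around Nos3, 4 of 12 genes of nitric oxide synthesis and its control rose in each genotype and none fell. Arginase Arg1, which draws on the same substrate as nitric oxide synthase, rose by 3.95 ± 0.40 in Has3-deficient and 4.57 ± 0.37 in wildtype arteries, and Arg2 by 2.11 ± 0.26 and 2.58 ± 0.24. The inducible synthase Nos2 rose by 1.58 ± 0.25 in Has3-deficient and 1.73 ± 0.23 in wildtype arteries, and Nostrin, which moves Nos3 away from the membrane, by 1.0 ± 0.12 and 0.91 ± 0.11. Arg1 and Nos2 are also made by activated macrophages.

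Around Thbd, a list of 10 genes covered the protein C pathway together with other genes of clotting and its control. Of these 4 rose and 1 fell in Has3-deficient arteries, and 1 rose and 2 fell in wildtype arteries. Tissue factor (F3), which starts clotting, fell by 0.61 ± 0.13 in Has3-deficient and 1.02 ± 0.12 in wildtype arteries. The protein C receptor Procr rose by 0.62 ± 0.10 in Has3-deficient and 0.29 ± 0.09 in wildtype arteries. The tissue factor inhibitor Tfpi rose by 0.53 ± 0.13 in Has3-deficient arteries, with 0.28 ± 0.12 in wildtype arteries, and the cofactor Pros1 by 0.37 ± 0.09, with 0.15 ± 0.08 in wildtype arteries.

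Of 5 other endothelin genes 1 rose in each genotype. The receptor Ednrb rose by 0.96 ± 0.28 in Has3-deficient arteries, with 0.51 ± 0.26 in wildtype arteries, and the converting enzyme Ece2 rose by 0.41 ± 0.14 in wildtype arteries, with 0.03 ± 0.15 in Has3-deficient arteries. Of 18 other BMP genes 1 rose and 2 fell in Has3-deficient arteries, and 2 rose and 6 fell in wildtype arteries. Bmper, a secreted binder of BMPs, rose by 1.18 ± 0.20 in Has3-deficient and 1.13 ± 0.19 in wildtype arteries. The signal carrier Smad9 fell by 0.73 ± 0.15 in Has3-deficient and 1.0 ± 0.14 in wildtype arteries, and the receptor Bmpr1a fell by 0.66 ± 0.12 and 0.92 ± 0.11.

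Of 8 caveola proteins measured, 4 fell in Has3-deficient arteries and 6 in wildtype arteries, and none rose; the median changes were -0.27 and -0.49. Cavin2 fell by 1.04 ± 0.19 in Has3-deficient and 1.24 ± 0.18 in wildtype arteries, and Cavin1 fell by 0.73 ± 0.17 and 0.73 ± 0.16. Cav2 fell by 0.26 ± 0.09 in Has3-deficient and 0.66 ± 0.08 in wildtype arteries, and Pacsin2 fell by 0.28 ± 0.09 and 0.53 ± 0.08. Cavin4 had a change of -0.01 ± 0.09 in Has3-deficient and 0.13 ± 0.08 in wildtype arteries. Smooth muscle markers, whose cells also carry caveolae, fell beside them, 10 of 10 in Has3-deficient and 9 of 10 in wildtype arteries. The part of this in the caveola changes was not tested.

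Around Cyp1b1, the aryl hydrocarbon receptor Ahr rose by 0.99 ± 0.23 in Has3-deficient and 1.51 ± 0.21 in wildtype arteries, and its target Tiparp by 0.48 ± 0.09 and 0.42 ± 0.09. The other 4 genes of that list did not pass in either genotype. Of 5 other connexin and pannexin genes 1 rose and 1 fell in Has3-deficient arteries, and 1 rose in wildtype arteries. The pannexin Panx1 rose by 1.0 ± 0.14 in Has3-deficient and 1.21 ± 0.13 in wildtype arteries, and the connexin Gjc1 fell by 0.38 ± 0.11 in Has3-deficient arteries, with -0.21 ± 0.11 in wildtype arteries.

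Markers of the cell types of the artery and its surroundings were followed array by array. Since every probe set is centred, presence or absence of a cell type cannot be read from its markers, only differences between arrays. The mean of 17 endothelial markers ranged from -0.09 to 0.09 in Has3-deficient ligated arrays, from -0.20 to 0.25 in Has3-deficient non-ligated arrays, from -0.23 to 0.14 in wildtype ligated arrays and from -0.12 to 0.14 in wildtype non-ligated arrays. These ranges overlapped, but single endothelial markers moved both ways: 4 rose and 3 fell in Has3-deficient arteries, and 4 rose and 6 fell in wildtype arteries. Emcn, a surface sialomucin, rose by 0.97 ± 0.22 in Has3-deficient and 1.5 ± 0.20 in wildtype arteries, and Tek fell as given above. Kdr rose by 1.19 ± 0.38 and 1.15 ± 0.35. Ptprb fell by 0.99 ± 0.13 and 1.33 ± 0.12, and Pecam1 fell by 0.64 ± 0.13 and 0.84 ± 0.12. The mean thus balances rises and falls, and some markers fell about as far as Nos3 and Thbd. A gene that stays apart from the mean may still move like some endothelial markers.

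Set against the mean of the endothelial markers in the same array, Klk10 averaged -1.43 ± 0.54 in Has3-deficient ligated and 0.69 ± 0.46 in Has3-deficient non-ligated arteries, and -2.02 ± 0.62 in wildtype ligated and 1.15 ± 0.54 in wildtype non-ligated arteries (SD, n = 3, 4, 4 and 4). Nos3 averaged -0.49 ± 0.05 in Has3-deficient ligated and 0.45 ± 0.37 in Has3-deficient non-ligated arteries, and -0.55 ± 0.09 in wildtype ligated and 0.25 ± 0.17 in wildtype non-ligated arteries. Thbd averaged -0.42 ± 0.29 in Has3-deficient ligated and 0.13 ± 0.12 in Has3-deficient non-ligated arteries, and -0.61 ± 0.16 in wildtype ligated and 0.28 ± 0.08 in wildtype non-ligated arteries. For these 3 genes the ligated and non-ligated ranges stayed apart on this scale in both genotypes, while for Cav1 they touched, with a highest ligated and a lowest non-ligated value of -0.05 and -0.06 in Has3-deficient and 0.06 and 0.03 in wildtype arteries.

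**Figure D4:**
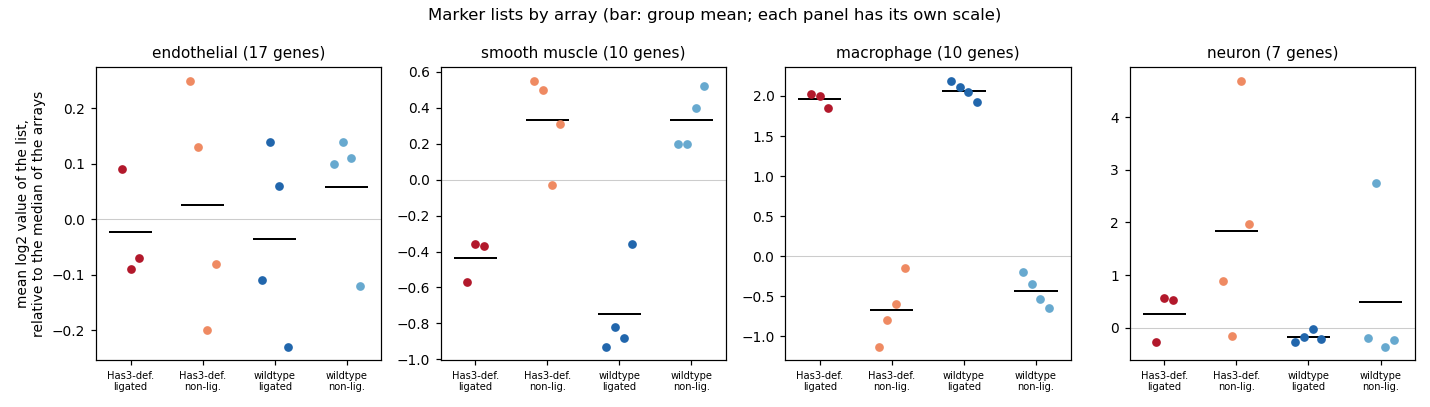
Mean log2 value of 4 marker lists in each array (points), relative to each gene's median over the arrays, by group on the horizontal axis, with the group mean as a bar and a separate vertical scale for each list. Endothelial means overlap between all groups, smooth muscle means are lower and macrophage means higher in ligated arrays, and the neuron mean reaches 4.69 in Has3-deficient non-ligated array 3.

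The means of the smooth muscle, macrophage, neutrophil and platelet markers differed between ligated and non-ligated arteries without overlap in both genotypes. The mean of 10 smooth muscle markers ranged from -0.57 to -0.36 in Has3-deficient ligated and from -0.03 to 0.55 in Has3-deficient non-ligated arrays, and from -0.93 to -0.36 in wildtype ligated and from 0.20 to 0.52 in wildtype non-ligated arrays. The mean of 10 macrophage markers ranged from 1.85 to 2.02 in Has3-deficient ligated and from -1.13 to -0.15 in Has3-deficient non-ligated arrays, and from 1.92 to 2.19 in wildtype ligated and from -0.65 to -0.20 in wildtype non-ligated arrays. The mean of 8 neutrophil markers ranged from 1.81 to 2.34 in Has3-deficient ligated and from -0.93 to -0.32 in Has3-deficient non-ligated arrays, and from 1.60 to 2.54 in wildtype ligated and from -1.02 to -0.17 in wildtype non-ligated arrays, and 7 of them rose in both genotypes. Of 5 platelet markers 1 rose in Has3-deficient and 2 in wildtype arteries. Their mean ranged from 0.30 to 0.69 in Has3-deficient ligated and from -0.65 to 0.03 in Has3-deficient non-ligated arrays. In wildtype arrays it ranged from 0.35 to 0.59 in ligated and from -0.74 to 0.26 in non-ligated arteries. Of 10 adventitial fibroblast markers 3 rose and 4 fell in Has3-deficient arteries, and 2 rose and 5 fell in wildtype arteries; their mean was -0.05 in Has3-deficient ligated and -0.06 in Has3-deficient non-ligated arteries, and -0.14 in wildtype ligated and 0.08 in wildtype non-ligated arteries. Of 6 T and NK cell markers 2 rose in Has3-deficient and 3 in wildtype arteries. Their mean ranged from 0.08 to 0.11 in Has3-deficient ligated and from -0.28 to -0.05 in Has3-deficient non-ligated arrays. In wildtype arteries the ranges met at 0.07. The fibroblast means overlapped in Has3-deficient arteries. In wildtype arteries they did not, with -0.21 to -0.06 in ligated and 0.01 to 0.21 in non-ligated arrays. The part of these shifts in the changes of the 10 genes was not tested.

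Of the fat markers 3 fell in wildtype and none passed in Has3-deficient arteries, and no neuron marker passed in either genotype. Of the markers of lymphatic endothelium 1 of 5 fell in wildtype arteries, of skeletal muscle 1 of 8 fell in both genotypes, of epithelium 1 of 7 rose in wildtype arteries, and of thyroid and parathyroid none of 4 passed.

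The genes whose centred values were closest to those of Klk10 were found by the root mean square difference over the 15 arrays, each gene centred on its own mean. Among 22179 genes the median difference was 1.47 log2 units. Ptprz1, a receptor phosphatase, was closest at 0.46, followed by the hedgehog binder Hhip at 0.53, the secreted protein Cytl1 at 0.66, Pkhd1l1 at 0.68 and the actin-binding protein Synpo2 at 0.69. The ligation change of Ptprz1 was -1.55 ± 0.31 in Has3-deficient and -2.84 ± 0.29 in wildtype arteries, that of Hhip -2.16 ± 0.36 and -2.84 ± 0.34, and that of Cytl1 -1.51 ± 0.24 and -1.74 ± 0.22. Pkhd1l1 changed by -1.56 ± 0.39 in Has3-deficient and -1.79 ± 0.37 in wildtype arteries, and Synpo2, one of the smooth muscle markers above, by -1.18 ± 0.23 and -1.89 ± 0.21. None of the other 9 flow-sensitive genes was among these 5. The measure follows the size of a change, so genes that changed far less than Klk10 could not be close, and nothing is read from their absence. The 5 genes were picked by the same arrays, so the likeness is a description.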

How the data were processed

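RNA of 15 carotid arteries was measured on arrays, 1 array a sample. The values deposited by the authors are on a log2 scale and cover 33793 probe sets. Every probe set had been centred on its median (the row median is exactly 0 for all 33793), so levels are lost and differences between arrays are kept. Base 2 was inferred from the stored numbers; normalization, software and build: not given in the sources used here.

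Probe sets were named through GEO's platform annotation and RefSeq (GRCm38.p6): 23521 carried 1 symbol, 1814 several and 8458 were unlisted. Probe sets with 1 symbol were averaged per gene, giving 22180 genes. The 4 groups were fitted in 1 model with limma 3.58.1 in R 4.3.3 (lmFit and eBayes), with Benjamini-Hochberg adjustment over all genes and a threshold of 0.05. The script was tested on simulated data with known changes.

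The 10 genes, the 12 pathway lists, the 13 marker lists and the tests were chosen with earlier results of these data known. Picked for naming were the 10 genes, and up to 4 passing genes of largest change per pathway list and ligation comparison. The 5 genes closest to Klk10 were added, and the markers with the highest and lowest wildtype ligation change. Not all of these are printed, and a few other genes of the lists are. Further markers are given as list means. Each fit was repeated with array weights, quantile normalization, a shared array median, a robust prior, only the groups compared, a replicate block, 2 other choices of probe set, values relative to the endothelial markers, and leaving out each array.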

Additional observations from a re-analysis of the deposited data

Results flagged for a closer look

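Within each group of 4 arrays, each of the 10 genes was screened for an array far from the rest (Dixon's criterion at 95%); 30 groups of values were screened, and chance alone marks about 1 in 20. Both values that stood out were in wildtype non-ligated array 4. Edn1 was at 0.60 there, against -0.57 to -0.42 in the other arrays of the group, a gap of 0.872 of the group's range. Gja4 was at -0.53 there, against -0.14 to -0.12 in the others, a gap of 0.949 of the range. The mean of the endothelial markers in this array was -0.12, the lowest of its group; its part in these values was not tested.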

How the results depend on the processing

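Of 216 recomputed values of the genes that passed after ligation among the 10, 198 still passed, 18 no longer passed and 0 changed sign; of 2256 such values of the other genes named, 2119 still passed, 137 did not and 0 changed sign. Those of Nos3, Bmp4 and Cav1 that no longer passed are given above or under the block, and the cause was not tested. The other genes counted here were picked for naming, and some of them are not printed. With the arrays left out in turn, 3 to 5 of the 10 and 2785 to 4354 genes passed in Has3-deficient arteries, and 4 to 5 of the 10 and 5381 to 6627 genes in wildtype arteries. Relative to the endothelial markers 2365 genes passed in Has3-deficient and 3932 in wildtype arteries. For genotype in ligated arteries 1 gene passed with array weights and 1 with only the groups compared. For genotype in non-ligated arteries the 19 genes became 43 with quantile normalization, 9 with array weights, 0 with only the groups compared, 7 with the most variable probe set and 2 relative to the endothelial markers, and 0 to 280 with an array left out (280 without Has3-deficient non-ligated array 4).

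Changes of sign concerned values that had not passed. Quantile normalization was applied to values already centred, so signs and calls under it do not stand for a normalization of the intensities. With quantile normalization the wildtype ligation change of Cyp1b1 was -0.0198, the genotype difference in ligated arteries was -0.20 for Klk10, -0.17 for Nos3 and 0.069 for Edn1, and the interaction of Gja4 was 0.053. With array weights the ligation change was -0.062 for Klf2 in Has3-deficient and -0.00397 for Cyp1b1 in wildtype arteries, and relative to the endothelial markers it was 0.011 for Klf4 in Has3-deficient arteries. With an array left out, the ligation change spanned -0.12 to 0.21 for Cyp1b1 in wildtype arteries, and in Has3-deficient arteries -0.23 to 0.20 for Klf2, -0.13 to 0.056 for Klf4, -0.53 to 0.0094 for Bmp4 and -0.042 to 0.18 for Ece2. The genotype difference in ligated arteries spanned -0.037 to 0.12 for Klf4, -0.39 to 0.28 for Edn1, -0.093 to 0.44 for Bmp4, -0.065 to 0.23 for Cyp1b1 and -0.012 to 0.25 for Gja4. In non-ligated arteries it spanned -0.065 to 0.37 for Klf2, -0.27 to 0.0304 for Klf4, -0.0065 to 0.33 for Nos3, -0.22 to 0.16 for Edn1 and -0.0084 to 0.38 for Gja4. The interaction spanned -0.25 to 0.083 for Nos3, -0.29 to 0.39 for Edn1 and -0.24 to 0.15 for Gja4.

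Whether equal replicate numbers mark paired samples could not be settled. The deviations of same-numbered wildtype ligated and non-ligated arrays correlated at 0.0282 to 0.164, against -0.208 to 0.121 for arrays of other numbers. Has3-deficient ligated and non-ligated arteries share 1 number (-0.0576), against -0.179 to 0.175 for other numbers. Numbers 5 and 6 occur only among Has3-deficient ligated arrays, so the replicate block takes up those arrays in full. Under the block that group therefore rests on array 3 alone. The block also joins wildtype and Has3-deficient arrays of equal number, which cannot be the same mouse. Counts, lost calls and changes of sign under the block thus do not show an effect of pairing. With the replicate block 1535 genes and 2 of the 10 passed in Has3-deficient arteries, and 0 genes for genotype in non-ligated arteries; Nos3 (-0.85) and Cav1 (-0.56) no longer passed in Has3-deficient arteries. Under the block the Has3-deficient ligation change of Bmp4 was -1.11, the genotype difference of Thbd in ligated arteries 0.014, and the interaction 0.46 for Klk10 and 0.20 for Thbd. The changes of sign under the block were Klf4 0.11 and Ece2 -0.074 for Has3-deficient ligation, Klk10 -0.029, Klf2 0.26, Edn1 0.18, Bmp4 -0.68 and Cyp1b1 -0.13 for genotype in ligated arteries, and Klf2 0.17, Nos3 0.047, Bmp4 -0.34 and Gja4 0.29 for the interaction. The number of arrays, 3 or 4 a group, limits the precision of every value, and centring leaves signal over background unknown.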
